A study of Mus musculus with 8 samples.

Results

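The accessible chromatin described here was that of wild-type mouse brain sections: 128874 regions that were found in both of 2 wild-type (WT) libraries, out of 192168 merged regions in WT 1 and 196388 in WT 2. Overlapping deposited peaks of a library were first merged into regions, and a region was kept as shared where the libraries overlapped by at least 1 bp. All 8 libraries of the study together gave 443327 regions, and the other 6 libraries entered that count alone. Both WT libraries came from mice at postnatal day 27 on the C57Bl/6J background, the wild-type littermates of Fn14 knockout mice, which received no treatment. Their brains had been frozen, and a coronal section was cut from each that took in cortex, hippocampus and dLGN (dorsal lateral geniculate nucleus), the part of the thalamus that relays vision to cortex. The assay was ATAC-seq on aliquots of 50000 nuclei with a Nextera kit. The labels number the libraries as replicates but do not say whether 1 or several mice went into each. The nuclei were not sorted, so each library mixes the neurons, glia and vascular cells of several brain areas. With 2 libraries and no contrast, no test was made, and strengths are given for WT 1 first and WT 2 second.

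In ATAC-seq a transposase cuts DNA where nucleosomes leave it exposed, and piled-up cuts mark promoters and enhancers. Promoters of genes used by nearly all cells are rich in CpG pairs, which vertebrate genomes otherwise lose through methylation, and they tend to lie in open chromatin whichever cell is examined. Enhancers are smaller and often open in only some cell types. In a brain section these include excitatory and inhibitory neurons, astrocytes, the oligodendrocytes that make myelin, and microglia, the resident macrophages.

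The sequences below show the DNA upstream of starts on which the results turn, as RefSeq gives it for GRCm38.p6, the assembly that mm10 names. Each line is the 250 bases before a listed start, 5′ to 3′ on the gene's strand. Capitals mark, on either strand, the NF-Y core CCAAT, the ETS factor core CCGGAAG, the SP factor core GGGCGG and the TATA box letters TATAAA. Map9 (chr3:82357822-82358071, plus strand), Bcl10 (chr3:145924012-145924261, plus), Etfdh (chr3:79628768-79629017, minus) and Tars (chr15:11399659-11399908, minus) are shown because their regions held places 3 to 6 of all by strength. Klhl29 (chr12:5375683-5375932, minus), Sp3 (chr2:72980447-72980696, minus) and Chst2 (chr9:95407271-95407520, minus) had regions at places 13, 16 and 29 by width. Jun (chr4:95052223-95052472, minus) and Homer1 (chr13:93303507-93303756, plus) had the strongest start region of the activity-regulated and the synaptic genes. Alb (chr5:90460620-90460869, plus), which encodes serum albumin of the liver, had no shared region at its start. All 9 windows with a region held both libraries' summits, the peak positions with most cuts, and starts whose window overlapped a gene were passed over.
Map9: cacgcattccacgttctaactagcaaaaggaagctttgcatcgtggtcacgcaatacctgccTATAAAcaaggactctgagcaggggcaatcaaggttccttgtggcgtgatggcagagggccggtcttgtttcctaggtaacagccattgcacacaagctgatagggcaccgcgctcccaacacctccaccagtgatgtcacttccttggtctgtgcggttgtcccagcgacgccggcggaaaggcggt
Bcl10: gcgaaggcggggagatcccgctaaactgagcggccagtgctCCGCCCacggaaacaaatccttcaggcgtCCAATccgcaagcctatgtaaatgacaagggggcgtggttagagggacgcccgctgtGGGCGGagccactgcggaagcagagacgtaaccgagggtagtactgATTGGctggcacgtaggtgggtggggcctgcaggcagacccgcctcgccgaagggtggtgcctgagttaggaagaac
Etfdh: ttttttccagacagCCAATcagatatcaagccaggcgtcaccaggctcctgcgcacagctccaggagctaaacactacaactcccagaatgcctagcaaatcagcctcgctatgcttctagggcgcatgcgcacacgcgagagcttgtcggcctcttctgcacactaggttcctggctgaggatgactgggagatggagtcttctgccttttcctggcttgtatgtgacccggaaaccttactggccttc
Tars: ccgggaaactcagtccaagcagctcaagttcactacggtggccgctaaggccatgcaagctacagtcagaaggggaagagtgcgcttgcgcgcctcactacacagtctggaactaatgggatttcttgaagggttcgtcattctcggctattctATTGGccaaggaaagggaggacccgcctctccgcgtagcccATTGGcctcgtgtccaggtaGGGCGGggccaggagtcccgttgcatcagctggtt
Klhl29: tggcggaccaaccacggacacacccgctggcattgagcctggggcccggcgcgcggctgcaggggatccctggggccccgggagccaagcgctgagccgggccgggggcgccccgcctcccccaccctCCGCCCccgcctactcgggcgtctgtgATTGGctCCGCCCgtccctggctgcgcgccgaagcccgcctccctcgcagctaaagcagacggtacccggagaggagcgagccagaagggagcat
Sp3: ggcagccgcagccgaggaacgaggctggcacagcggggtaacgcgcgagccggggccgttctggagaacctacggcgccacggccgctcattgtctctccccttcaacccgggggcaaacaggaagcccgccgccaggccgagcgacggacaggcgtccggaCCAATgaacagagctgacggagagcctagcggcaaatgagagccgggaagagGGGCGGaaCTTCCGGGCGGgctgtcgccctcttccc
Chst2: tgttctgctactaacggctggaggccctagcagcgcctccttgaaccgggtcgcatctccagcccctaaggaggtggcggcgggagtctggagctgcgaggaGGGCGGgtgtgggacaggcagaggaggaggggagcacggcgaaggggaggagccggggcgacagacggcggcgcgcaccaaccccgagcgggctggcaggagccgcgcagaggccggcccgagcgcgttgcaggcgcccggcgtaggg
Jun: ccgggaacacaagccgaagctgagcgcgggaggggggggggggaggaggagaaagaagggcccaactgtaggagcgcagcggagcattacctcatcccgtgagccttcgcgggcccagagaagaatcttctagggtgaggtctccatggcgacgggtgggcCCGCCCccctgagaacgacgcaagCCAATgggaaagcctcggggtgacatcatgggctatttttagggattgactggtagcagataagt
Homer1: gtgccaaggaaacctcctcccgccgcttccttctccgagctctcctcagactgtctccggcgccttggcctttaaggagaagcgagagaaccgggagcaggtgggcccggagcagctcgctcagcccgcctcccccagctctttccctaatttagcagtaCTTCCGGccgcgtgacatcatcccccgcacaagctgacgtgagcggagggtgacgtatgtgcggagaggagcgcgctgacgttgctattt
Alb: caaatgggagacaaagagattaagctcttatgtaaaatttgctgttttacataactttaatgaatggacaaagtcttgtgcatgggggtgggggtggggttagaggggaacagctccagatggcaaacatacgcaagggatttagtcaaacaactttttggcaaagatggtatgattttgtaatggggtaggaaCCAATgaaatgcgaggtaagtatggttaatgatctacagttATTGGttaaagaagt

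The Alb window held 2 CpG pairs, against 14 upstream of Map9, 19 upstream of Bcl10, 9 upstream of Etfdh and 14 upstream of Tars. The 3 windows chosen for width held 27 or 28. CCAAT was present upstream of Bcl10, Etfdh, Tars, Klhl29, Sp3 and Jun, and also 2 times upstream of Alb. Of the windows shown, TATAAA was present upstream of Map9 alone. In the windows chosen by strength or width, closeness of the summit to the start was a condition of the choice. The strongest summit lay at -53 bp in WT 1 and -46 bp in WT 2 for Map9, and at -44 and -39 bp for Homer1. It lay farthest away for Etfdh, at -217 and -221 bp, where the region also covered the start of the neighbouring gene 4930579G24Rik.

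The strength of a region was taken as the highest −log10 p that the authors' peak calling gave in it. It measures how surely a peak stood above its background and rises with depth as well as with accessibility, so it ranks regions within a library. Across the 128874 shared regions the median strength was 11.1 in WT 1 and 9.78 in WT 2. The quartiles were 6.04 and 25.1 in WT 1 and 5.36 and 21.5 in WT 2. The order of the regions was much alike in the libraries, with a Spearman correlation of 0.80 across these regions, which are not independent replicates and were kept because both libraries called them. Values were higher in WT 1 for 63.1% of regions and for 87.2% of the strongest decile (12887 regions), where the median ratio of WT 1 to WT 2 was 1.29. The fold enrichment over background, also a value of the authors, had a median ratio of 1.06 in that decile. The depth of the libraries is unknown, and its part in this difference was not tested.

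**Figure D1:**
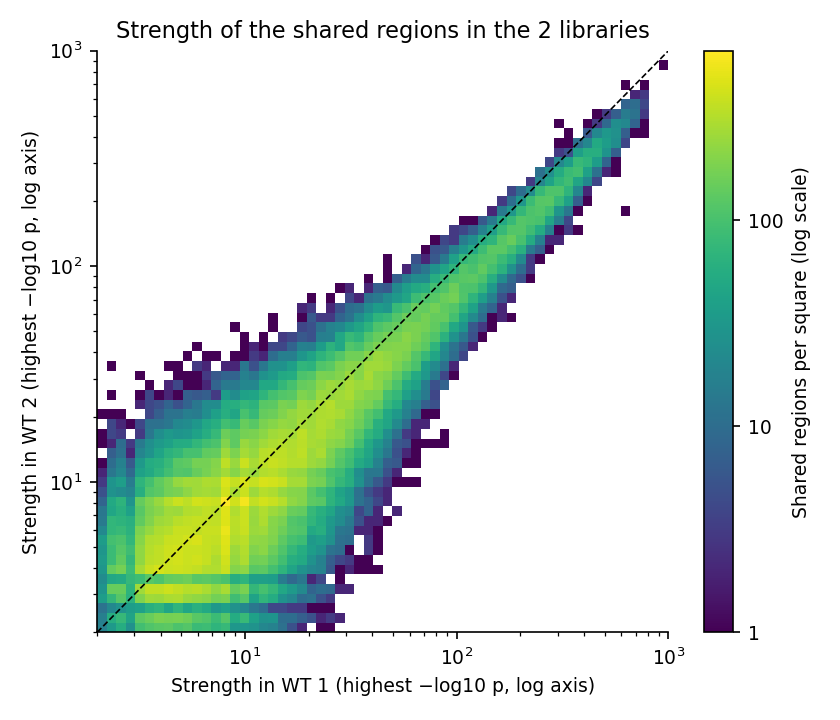
Strength of each shared region in WT 1 (horizontal, log axis) and WT 2 (vertical, log axis), with colour giving the number of the 128874 shared regions per square and a dashed line of equal values. Strong regions lie in a narrow band mostly below the line, where 87.2% of the strongest decile were higher in WT 1, and weak regions scatter widely.

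Strong regions recurred and weak ones often did not. Of the strongest decile of WT 1 regions 99.9% were found in WT 2, and of the weakest decile 32.9%. In the other direction the shares were 99.98% and 30.1%. The 57627 regions found only in WT 1 had a median strength of 4.32 and a median width of 199 bp, and the 62684 found only in WT 2 had 3.77 and 200 bp. Of these unshared regions 3.30% and 3.25% lay at a gene start. Summits of shared regions were 23 bp apart between libraries at the median, 8 bp in the strongest decile and 60 bp in the weakest.

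Most shared regions lay within genes, and a minority lay at gene starts. A region counted as at a start when it came within 1.0 kb of a start listed by RefSeq or, for the 4392 of 21883 protein-coding genes without a listed start, of either gene end. By this rule 16186 regions (12.6%) were at a start, and 61962 (48.1%) had their centre inside a gene away from a start. Outside genes but within 50 kb of one lay 25252 regions (19.6%), and 25474 (19.8%) were farther away. Counting starts too, the centres of 74499 regions (57.8%) fell in some protein-coding gene. Start regions were wider and stronger than the others, with a median width of 976 bp against 418 bp inside genes. Their median strengths were 66.4 in WT 1 and 50.4 in WT 2, against 9.32 and 8.07 inside genes. Far regions, at 10.4 and 9.78 with a median of 426 bp, resembled those inside genes.

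Location changed steeply with strength. The regions were split into deciles of strength, of 12887 or 12888 regions each, with decile 1 the strongest. Starts took 64.8% of decile 1, 17.1% of decile 2, 9.23% of decile 3 and 4.08% of decile 10. Among the strongest 1000 regions 944 were at a start, and among the strongest 100, 97. Below the strongest decile the share inside genes rose from 39.1% in decile 2 to 61.1% in decile 10, while the share more than 50 kb from a gene stayed between 17.8% and 22.5%. Width fell in step with strength, from a median of 1043 bp in the strongest decile to 303 bp in the weakest.

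**Figure D2:**
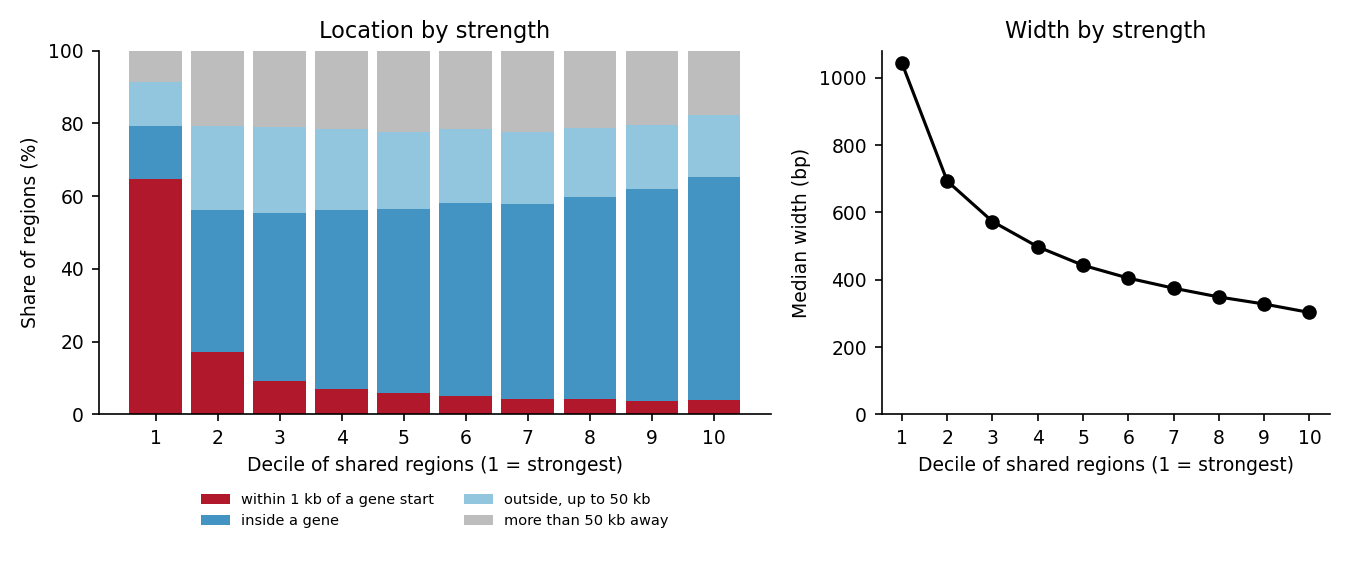
Left, the share of regions in each location class (stacked bars, percent) for each decile of the 128874 shared regions ordered by mean strength rank, with 1 the strongest; right, the median width in bp of each decile. Starts make up 64.8% of the first decile and 17.1% of the second, and the median width falls from 1043 to 303 bp.

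The 10 strongest regions were all at gene starts. The strongest, chr1:88276650-88278045, lay at Hjurp, a chaperone of centromeric histone, with a strength of 935 in WT 1 and 826 in WT 2. Its fold enrichment, 18.8 and 17.7, was below the 28.99 and 29.06 of the region in second place. That region, chr3:20057405-20058369, lay at Hltf, a DNA translocase of damage tolerance, with strengths of 811 and 712. Map9, a microtubule-associated protein of the spindle, followed at chr3:82357682-82358656 with 768 and 632.5. Bcl10, an adaptor of NF-kB signalling, had 770.3 and 592 at chr3:145923770-145925008. The region at chr3:79628384-79629716 between Etfdh, an electron transfer enzyme of mitochondria, and 4930579G24Rik had 752 and 628. Tars, threonyl-tRNA synthetase, had 736 and 626 at chr15:11399313-11400159. Xrcc4, a DNA repair factor of end joining, had 775 and 561 at chr13:90088944-90090158. The last 3 lay at Armc1 (722 and 619), Ebag9 (763 and 551) and the paired starts of Cggbp1 and Zfp654 (729.7 and 562). In each of the 10 the value was higher in WT 1. Their widths ran from 847 bp at Tars to 1564 bp at Ebag9.

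Strong regions covered the starts of 2 or more genes, with both strands present, more often than weak ones. Of the 77 strongest-100 regions that held a listed start, 16 (20.8%) held such opposite-strand starts. Whether these starts pointed away from each other was not checked. The share was 10.2% of 6806 in the strongest decile, 3.54% of 1552 in decile 2, 0 of 82 in decile 10 and 7.27% of the 10479 shared regions with a listed start. Regions with opposite-strand starts had median strengths of 197 and 147 in WT 1 and WT 2, and the other regions with a listed start 95.5 and 71.9. Their median widths were 1195.5 and 1065 bp. In the strongest decile these medians were 1208 and 1136 bp, while the 82 regions of decile 10 had 356.5 bp. A wider region can hold more starts, and the part of width in these shares was not tested. Starts missing from the table would make some pairs look single.

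At listed starts the summit sat just upstream. Over 12140 start regions in WT 1 the median position of the strongest summit was -36 bp, with quartiles of -91 and 15 bp, and over 12155 in WT 2 it was -35 bp, with quartiles of -92 and 17 bp. Upstream positions made up 69.5% and 69.0%. The 200 bp before the start held 57.2% and 56.5% of summits, and the 200 bp after it 16.7% and 16.8%.

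**Figure D3:**
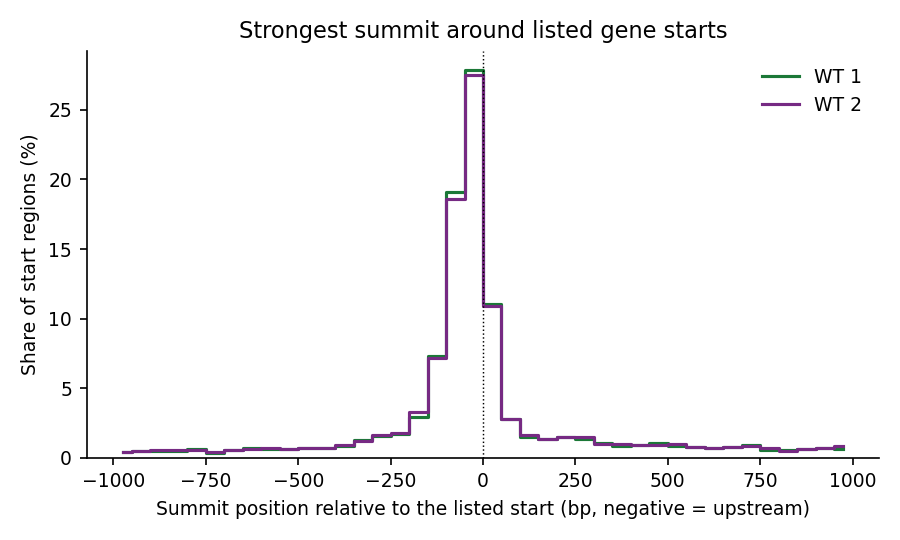
Position of the strongest summit relative to the nearest listed start in bp (negative is upstream), as the percent of start regions per 50 bp for WT 1 and WT 2. Both libraries peak just before the start, with medians of -36 and -35 bp.

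Whether a start carried a region followed the CpG content of the 250 bases before it. Of 1406 listed starts with 0 CpG pairs 3.91% overlapped a shared region there, and of 3395 with 1 or 2 pairs 10.2%. The share was 29.95% with 3 to 5 pairs, 63.1% with 6 to 9, 87.2% with 10 to 14 and 93.5% with 15 to 19. It ended at 96.4% of 1629 starts with 30 or more. Regions of the strongest decile reached 72.4% of starts with 20 to 24 pairs and 68.9% with 30 or more. The median strength also turned, from 146 and 109 with 20 to 24 pairs to 110.4 and 81.8 with 30 or more, while the median width kept growing, from 1151.5 to 1333 bp. The richest starts were thus wider and less strong than those with 20 to 24 pairs.

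**Figure D4:**
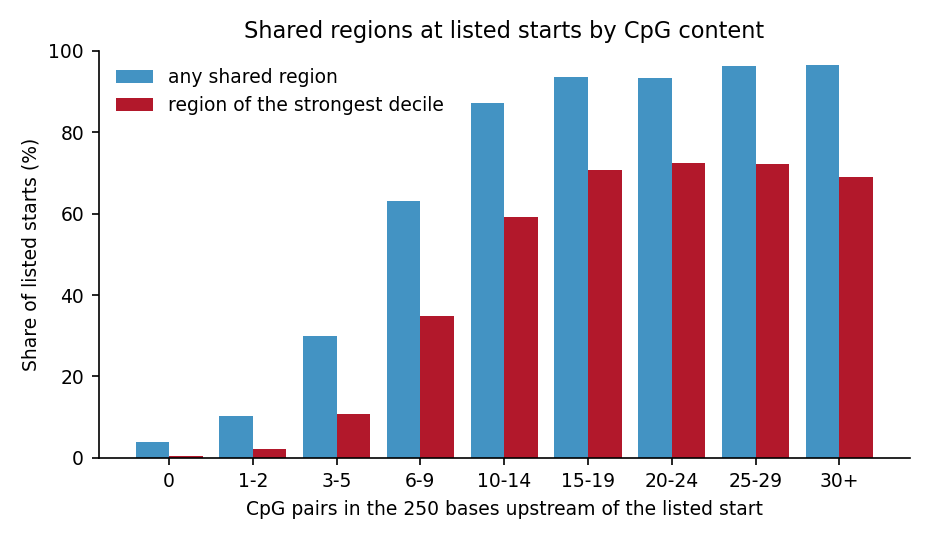
Share of the listed starts (percent) whose upstream 250 bases overlapped any shared region (blue) or a region of the strongest decile (red), by the number of CpG pairs in those bases. The blue bars climb from 3.91% to 96.4%, and the red bars level off near 72.4%.

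Short motifs were counted in the same 250 bases on both strands; a match describes letters and is not a binding site. CCAAT, the core that NF-Y binds, was in 35.4% of all 21262 listed starts, in 41.0% of those with a region of the strongest decile and in 67.6% of 995 starts with a region among the strongest 1000. Starts without a region held it in 34.6% and starts with a weaker one in 25.7%, so the share did not climb steadily with strength. CCGGAAG, the core of ETS factors, was in 8.98% of all, 2.25% without a region, 17.2% in the strongest decile and 19.4% in the strongest 1000. GGGCGG, bound by SP and KLF factors, was in 42.6% of all, 14.4% without a region and 68.5% in the strongest 1000. TATAAA went the other way, with 20.8% of starts without a region, 4.99% of the strongest decile and 2.81% of the strongest 1000, against 11.6% of all. TGANTCA, the AP-1 core, was also less common at strong regions, from 9.44% without a region to 2.51% in the strongest 1000, against 6.13% of all. The cAMP response element TGACGTC was in 3.36% of all and 7.14% of the strongest 1000. TCTCGCG, part of the BANP motif, was in 2.88% and 6.93%, and GCGCATG, part of the NRF1 motif, in 3.96% and 5.93%. AAGATGG, the YY1 core, was in 4.13% and 4.12%. The E-boxes CAGCTG and CATCTG were in 12.1% and 12.4% of all starts and 7.34% and 7.54% of the strongest 1000. Matches overlapped most often between GGGCGG and CCAAT, in 83 windows.

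Among starts of like CpG content only some of these differences were seen. With 15 to 24 CpG pairs, GGGCGG was in 70.7% of 317 starts without a region and in 70.5% of 3469 with a region of the strongest decile. CCGGAAG was in 6.94% and 20.4% of the same sets. CCAAT was in 29.3% and 42.2%, and in 22.3% of the 1074 starts with a weaker region. AAGATGG was in 0.315% of the starts without a region, 2.79% of those with a weaker one and 5.16% of those in the strongest decile. The first share rests on very few of the 317 starts. Over listed starts of any CpG content the shares were 4.21%, 3.25% and 4.49%, without such a climb.

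Some of the strongest regions lay far from any listed coding start, and several of these touched noncoding genes. The rule asked for more than 10 kb from every start and end of a protein-coding gene. First came chr3:65974056-65975325 with strengths of 630.5 and 465, place 78 of all, with Ccnl1 the nearest gene at 12661 bp from its centre. Next was chr1:7397561-7398719, with 593 and 445. Its centre lay 44 bp from the lncRNA gene Gm26901, which the region reached, and 224512 bp from a coding gene. The region chr8:73352528-73354618 had 514 and 429 over 2091 bp, and no coding gene lay within 589675 bp of its centre. The region chr7:73557780-73559232, with 446 and 379, had its centre 111 bp from Chaserr and reached it, a lncRNA that limits expression of its neighbour Chd2. A region at Dancr, a lncRNA, had 435 and 357 at chr5:74092528-74093595. A region at chr3:19627845-19629417 reached a tRNA gene 151 bp from its centre and had 512 and 296. The rest of the 10 lay inside Uggt2, near Pum2, and at chr1:23255815-23257122 and chr15:68362508-68363804. Of all 25474 regions more than 50 kb from coding genes 19.2% had their centre in a noncoding gene, as had 25.6% of the 1119 that were in the strongest decile and 35 of the strongest 100 far ones. Noncoding genes here were all RefSeq genes not classed as protein-coding, pseudogenes included.

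Within genes and more than 10 kb from their ends, the strongest region was in Uggt2, a folding sensor of the endoplasmic reticulum, with 487 and 341 at chr14:119007193-119007997. Chd8, a chromatin remodeller, came next with 421 and 328 at chr14:52244101-52245064, 12696 bp from the nearest start. Arhgap26 (433 and 303) and Oxr1 (431 and 303) followed, and others of the 10 were Asah1 (409 and 273), Pfkfb3 (359 and 274), Mapre2 (368 and 267), Zfp704 (381 and 246) and Stard13 (338 and 272). The Oxr1, Pfkfb3 and Zfp704 regions were single peaks in both libraries. Exons, introns and unlisted alternative starts could not be separated with the gene table used, so a region here may be a promoter that the table lacks.

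The widest regions were other regions than the strongest: 0 of the 100 strongest were among the 100 widest, although 55.8% of the strongest decile were in the widest decile. Shared regions ran from 150 to 3205 bp, with a median of 449 and quartiles of 313 and 676 bp. The widest, chr3:58414197-58417401, covered the start of Tsc22d2, which encodes a leucine zipper protein, over 3205 bp with strengths of 224 and 192, and joined 11 peaks of WT 1 and 13 of WT 2. A 3131 bp region at chr9:124422838-124425968 covered Gm20783. The 3021 bp region at Fat3, an atypical cadherin of neuronal wiring, had 61.8 and 34.4 (chr9:16499641-16502661). Below it came a 2982 bp region inside Schip1, 24927 bp from the nearest start, and one of 2957 bp in the transcriptional corepressor gene Ctbp2. Regions at the starts of Arid1b, a subunit of the BAF chromatin remodeller (2892 bp), Rims2, a presynaptic scaffold (2763 bp), and Dnmt3a, a DNA methyltransferase (2742 bp), had strengths of 44.2 and 35.4, 56.1 and 43.3, and 51.9 and 37.0, all below that of Tsc22d2. The region in Nr3c1, the glucocorticoid receptor gene, measured 2796 bp with 109.9 and 95.7. The region near Klf9, a glucocorticoid-induced transcription factor gene, measured 2783 bp and lay 4978 bp from its start. Of the widest 1000 regions 841 were at a start.

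The genes with most regions were long: the 25 leading ones had a median length of 1055 kb, against 17.2 kb for all genes. A region counted for the protein-coding gene nearest its centre, up to 50 kb away, which placed 103400 regions. Ptprd, a receptor phosphatase of synapse formation, had 126, of which 2 were in the strongest decile. Magi2, a synaptic scaffold, had 118. Nrxn3, a presynaptic adhesion molecule, had 113, and Pde4d, a cAMP phosphodiesterase, had 112. Astn2, an adhesion protein of migrating neurons, had 99, Elmo1, a regulator of Rac, 98, and Tenm2, a teneurin adhesion molecule, 97. Anks1b had 96, Ctnna2, an alpha-catenin of neurons, 94, and Ank2, Dab1 and Ptprn2 shared the next place with 93 each. In single libraries the counts were higher, with 209 regions in WT 1 and 242 in WT 2 for Ptprd. The median gene had 2 regions, and 5301 genes (24.2%) had 0. The 1030 genes with 20 or more held 34.4% of the assigned regions. With peaks of −log10 p of 5 or more alone there were 498 such genes, and in a single library 1878 to 1902.

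Counts followed gene length, as the Spearman correlation of gene length with regions inside the gene was 0.72 across 21883 genes, given as a description. The median of the 2428 genes of at least 100 kb was 6.92 regions per 100 kb. Ptprd, with 5.51, and Nrxn3, with 6.76, lay below it but above 5.11, the median of the genes of 500 kb or more. The other genes just named lay above both medians, from 7.64 for Tenm2 to 17.0 for Elmo1. Elmo1 had the highest density of the 226 genes of 500 kb or more. Among genes with at least 5 regions inside, the densest were short. Il3ra, a cytokine receptor subunit gene, had 5 in 9.58 kb, and Jph4, a junctophilin of neurons, 5 in 10.1 kb. Nkx2-2, a transcription factor of the oligodendrocyte lineage, had 9 in 18.95 kb, and Brd2, a bromodomain protein gene, 5 in 10.8 kb. Nbl1 (5), Tyro3 (9), a receptor kinase, Inka2 (7), Pdlim4 (6), 1700001L19Rik (7) and Igfbp5 (7), an IGF binding protein gene, completed the 10.

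The lists of marker genes were then read at gene starts, beside all 21883 protein-coding genes, of which 64.6% had a shared region at the start (64.4% of genes with a listed start and 65.6% of those read at their ends). The start region was in the strongest decile of regions for 42.1% of genes and in the widest decile for 38.5%. These lists were chosen with earlier results of these data known, and their counts are descriptions. A gene with none may still have a region beyond 1.0 kb, or at a start that the table lacks, since a listed start or, without one, the gene ends were read. Conversely, for a gene without a listed start a region at its 3′ end counted as a start region. The start regions of the retinal and skin lists were all of such genes. A start region was found for 22 of 22 activity-regulated genes, 25 of 26 synaptic genes, 19 of 20 housekeeping genes, 15 of 16 pan-neuronal genes and 15 of 16 oligodendrocyte genes.

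**Figure D5:**
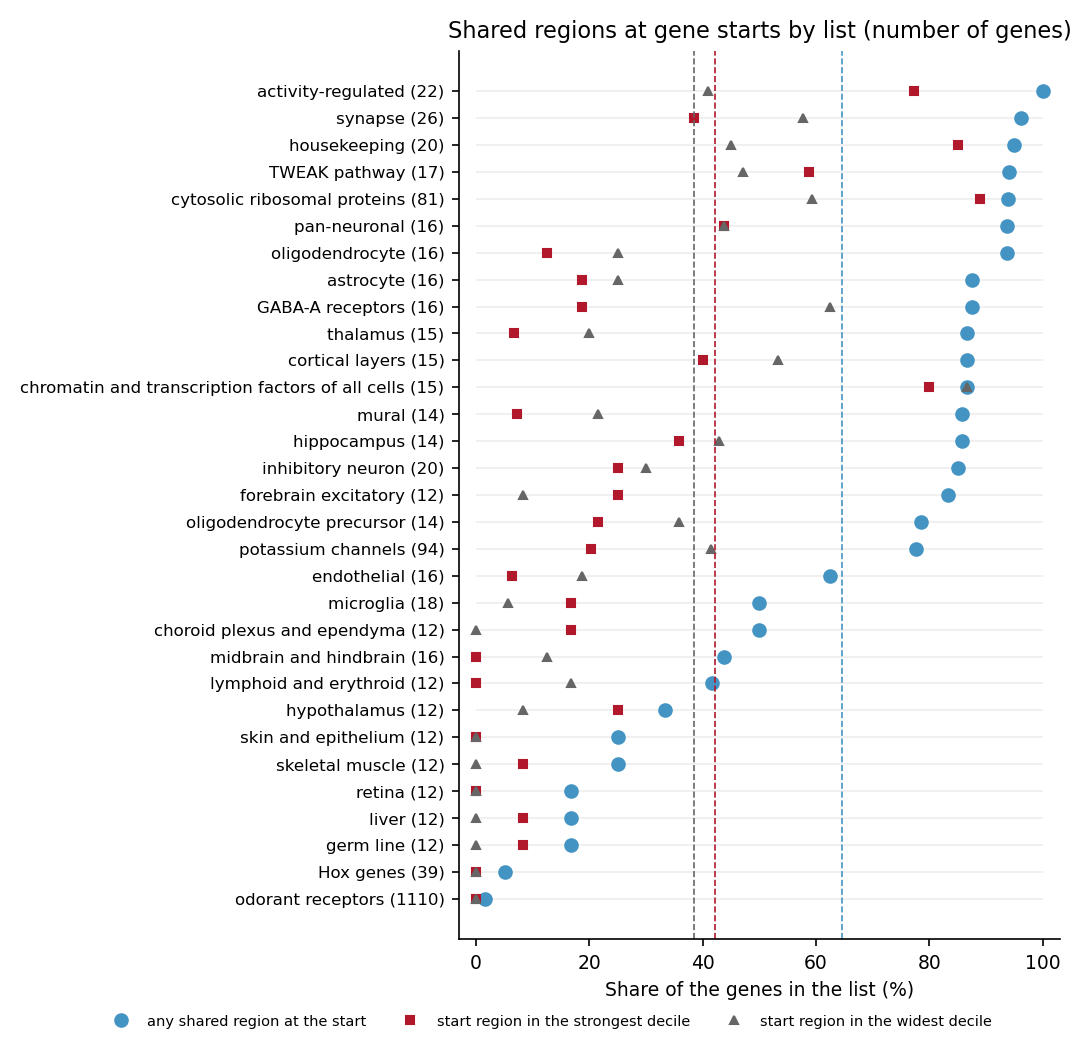
For each list or family (number of genes in brackets), the percent of genes with any shared region at the start (circles), with a start region in the strongest decile (squares) or in the widest decile (triangles); dashed lines mark all protein-coding genes at 64.6%, 42.1% and 38.5%. Circles of the neuronal, oligodendrocyte, astrocyte and mural lists lie right of the blue line. Those of microglia, choroid plexus and other tissues lie left of it, with the endothelial circle just left at 62.5%. The squares of the glial lists lie left of the red line, as do those of the thalamic, inhibitory, forebrain excitatory, hippocampal, cortical and synaptic lists.

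Genes induced by neuronal activity often had a start region in the strongest decile, 17 of 22 (77.3%) against 42.1% of all genes. All 22 had a start region, against 64.6% of all genes. The median strength of these start regions was 99.3 in WT 1 and 70.0 in WT 2. In each library this was below the median over all genes with a start region, which was 77.7 in WT 2. Their start regions were thus more often present, but not stronger at the median. Jun, a subunit of AP-1, had 423 in WT 1 and 332 in WT 2 over 2085 bp, and Homer1, a postsynaptic scaffold with an activity-induced short form, had 405 and 236. Fos, the classic immediate early gene, had 127 and 97.4 and 15 regions assigned to it. Arc, an activity-induced regulator of AMPA receptors, had 90.2 and 68.1, and Bdnf, a neurotrophin, had 84.6 and 60.6. The weakest of the list was Npas4, an activity-dependent transcription factor, with 7.99 and 5.76. Fos, Arc, Bdnf and Npas4 were named after their values were seen.

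Synaptic genes mostly had a start region, more often in the widest decile than in the strongest. Of the 26 genes 10 (38.5%) had a start region in the strongest decile and 15 (57.7%) in the widest. Over all genes these shares were 42.1% and 38.5%. After Homer1 the strongest was Syt1, the calcium sensor of vesicle release, with 299.8 and 166. Dlg4, which encodes the postsynaptic scaffold PSD-95, had none at its listed start, and 5 regions were assigned to it. Among 16 GABA-A receptor subunit genes 14 had a start region, 3 in the strongest decile and 10 in the widest, with a median width of 1469.5 bp. Of 94 potassium channel genes 20.2% were in the strongest decile and 41.5% in the widest, the latter near the share of all genes. Cytosolic ribosomal protein genes differed from these in strength: 76 of 81 had a start region, 88.9% in the strongest decile. In the widest decile they had 59.3%, a share like that of the synaptic genes. These families were collected by symbol after the files were read.

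Neuronal identity genes showed a mixed picture. Elavl2, a neuronal RNA-binding protein gene, led the pan-neuronal list with 452 and 321, and Map2, a dendritic microtubule protein gene, followed with 213 and 158. Rbfox3, which encodes the nuclear marker NeuN, had none at its listed start although 31 regions were assigned to it. In the inhibitory list 17 of 20 genes had a start region, led by Adarb2 (181 and 107), a marker of one interneuron class, and Prox1 (113 and 53.2), a transcription factor gene. Gad1, for GABA synthesis, had 9.75 and 12.8 and was named after its values were seen. The neuropeptide genes Sst and Vip and the interneuron factor Lhx6 had none at their listed starts.

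Markers of the labelled areas were present. Cortical layer genes had a start region in 13 of 15 cases, led by Tle4 (391 and 248), a corepressor of deep layers, and Etv1 (217 and 148), a transcription factor gene of deep-layer neurons. Sox5 had none at its listed start. In the forebrain excitatory list 10 of 12 had one, among them Camk2a (101 and 74.9), a kinase of excitatory synapses. Neurod2 and Slc17a7, the cortical vesicular glutamate transporter gene, had none. In the hippocampal list 12 of 14 had one, led by Wfs1 (332 and 229) and Man1a (275 and 176), and Spink8 and Zbtb20 had none, although 52 regions were assigned to Zbtb20. In the thalamic list 13 of 15 had one, with Cacna1g (93.2 and 78.2), a T-type calcium channel gene, and Kitl (50.4 and 55.2) strongest and Plekhg1 and Zic4 without. Of the 15 thalamic genes 1 had a start region in the strongest decile (6.67%). The shares were 40% for cortical layers, 25% for forebrain excitatory genes and 35.7% for the hippocampal list, all below the 42.1% of all genes. Shares with any start region were alike in the astrocyte (87.5%) and mural (85.7%) lists.

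Lists of brain areas that the labels do not name lay below the 64.6% of all genes. In the midbrain and hindbrain list 7 of 16 genes had a start region, 0 of them in the strongest decile, led by Tph2 (42.2 and 26.5), a serotonin synthesis enzyme gene, and En2 (28.0 and 24.8). Of 39 Hox genes, which pattern the hindbrain and trunk, 2 had one. In the hypothalamic list 4 of 12 had one; Agrp, a feeding peptide gene, had 241 and 159, in a region closer to a neighbouring gene, and Crh had 87.2 and 105. In WT 2 alone 7 of the 12 had one.

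Glial genes mostly had a start region, but few had one in the strongest decile. The shares were 12.5% for oligodendrocyte, 21.4% for precursor and 18.75% for astrocyte genes, against 42.1% of all genes. Low shares were not particular to glia. The inhibitory and forebrain excitatory lists had 25% each and the thalamic list 6.67%, while the pan-neuronal list had 43.75%. Oligodendrocyte genes had a start region in 15 of 16 cases but in the strongest decile in 2. Olig1, a lineage transcription factor gene, had 122 and 76.8, and Cldn11, a tight junction gene of myelin, 98.8 and 67.3. Mbp, for myelin basic protein, had 39.3 and 22.1 and 31 assigned regions, and was named after its values were seen. Sox10 had none at either gene end. For precursors 11 of 14 had one, Olig1 and Sox8 (68.2 and 71.3) being strongest, and Matn4, Pdgfra and Sox10 had none. Astrocyte genes had one in 14 of 16 cases, led by Glul, glutamine synthetase (205 and 136), and Aldh1l1, a folate enzyme gene (104 and 78.5), and Aqp4 and Slc1a2 had none.

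The lists of microglia and choroid plexus lay below the 64.6% of all genes, the endothelial list close to it and the mural list above it. In the microglial list 9 of 18 genes had a start region, 3 of them in the strongest decile. Irf8, a myeloid transcription factor gene, had 75.2 and 49.9. The homeostatic marker Cx3cr1 had 6.04 and 4.27, and was named after its values were seen. With peaks of −log10 p of 5 or more alone, 5 microglial and 5 endothelial genes had a start region. In such bulk nuclei few cells of a type and little opening per cell cannot be told apart. Endothelial genes had one in 10 of 16 cases (62.5%), led by Slc2a1, the glucose transporter of brain capillaries (163 and 107), and Mfsd2a (36.2 and 19.9), a lipid transporter gene. Mural genes had one in 12 of 14, with Vtn (102 and 77.5) and Tagln (21.8 and 25.1) strongest and Anpep and Higd1b without. Choroid plexus and ependymal genes had one in 6 of 12, led by Dynlrb2 (185 and 109) and Rsph1 (83.6 and 49.6), both of ciliated cells.

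Genes of other tissues mostly lacked a shared region at the start. Retinal genes had a region in 2 of 12 cases (1 in WT 1 alone), with Rax at 54.5 and 36.0. Liver genes had one in 2 of 12, Apob (57.4 and 56.9) and Fga (11.7 and 21.9). Germ line genes had one in 2 of 12, Dazl (118 and 101) and Sycp3 (3.06 and 3.29), and in 4 of 12 in WT 2 alone. Skeletal muscle genes had one in 3 of 12 (5 in WT 1 alone), led by Actn3 (186 and 119) and Casq1 (18.97 and 27.96), skin and epithelial genes in 3 of 12, Trp63 and Grhl2 first with 6.04 in WT 1, and lymphoid and erythroid genes in 5 of 12, led by Klf1 (44.5 and 27.8) and Tcf7 (31.5 and 25.5). Among 1110 odorant receptor genes 17 had one (1.53%), and among 355 vomeronasal receptor genes 4 (1.13%).

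Genes that all cells use stood at the other end. In the housekeeping list 17 of 20 genes had a start region in the strongest decile, led by Vcp, an unfolding ATPase (289.99 and 300.01), and Pgk1, a glycolytic enzyme gene (276 and 221). Ywhaz, without a listed start, had none at its gene ends. A 2254 bp region inside Ywhaz, 8399 bp from the nearest end, had 309 and 203. General chromatin and transcription factor genes combined strength and width, with 12 of 15 in the strongest decile and 13 of 15 in the widest. Chd8 led with 445.6 and 320.3, and Gabpa, an ETS factor gene, had 367 and 296. Nipbl and Rad21, of the cohesin system, had none at their gene ends, and neither has a listed start.

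The pathway that names the mouse line could be read in these wild types. TWEAK, a cytokine encoded by Tnfsf12, binds Fn14, encoded by Tnfrsf12a, and signals through TRAF adaptors to NF-kB. The receptor gene Tnfrsf12a had a narrow region of 264 bp at its start, with 13.6 in WT 1 and 8.02 in WT 2, and 1 region assigned in all. The ligand gene Tnfsf12 had 18.2 and 15.4 over 581 bp. Both lay below the medians of the pathway's start regions, 77.8 and 50.9. The adaptor genes Traf1 (3.5025 and 8.42) and Traf3 (10.3 and 10.4), named after their values were seen, were also low. The strongest were Birc2, an inhibitor of apoptosis bound to TRAF2, with 375 and 322, and Traf2 with 335 and 235. In all 16 of 17 pathway genes had a start region, 10 in the strongest decile, and Cd163, a scavenger receptor gene of macrophages, had none.

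MicroRNA hairpins, short RNA folds from which the mature silencing RNAs are cut, were compared with the shared regions: 136 of 1005 listed hairpins (13.5%) overlapped one, 75 of them in a region not at a coding start. The mature sequences shown are those of microRNAs named below, with the seed, bases 2 to 8, which pairs with targets, in capitals and equal seeds side by side. The microRNAs were picked after the regions were seen.
miR-9-5p: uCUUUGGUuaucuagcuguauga
miR-132-3p: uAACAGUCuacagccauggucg
miR-212-3p: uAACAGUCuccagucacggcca
miR-137-3p: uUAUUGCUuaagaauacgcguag
miR-17-5p: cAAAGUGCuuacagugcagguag
miR-20a-5p: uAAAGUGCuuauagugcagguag
miR-19a-3p: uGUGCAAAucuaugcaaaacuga
miR-19b-3p: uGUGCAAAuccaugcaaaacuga

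The Mir9-3 hairpin, 1 of 3 that give the neural miR-9, lay in a 645 bp region at chr7:79504728-79505372 with strengths of 100.1 and 75.8. The Mir9-1 hairpin lay in a weak region of 4.54 and 3.02, and Mir9-2 lay 520 bp from one of 38.0 and 56.3. Mir132 and Mir212, activity-regulated microRNAs of equal seed, shared a 1068 bp region at chr11:75172907-75173974 that differed between libraries, with 42.2 in WT 1 and 13.97 in WT 2. Mir137 lay in a region of 11.6 and 10.6, and Mir128-2 in one of 39.6 and 34.0. The Mir17 cluster, in which miR-17 and miR-20a share a seed and miR-19a and miR-19b another, began 993 bp after a 2615 bp region at chr14:115040064-115042678 with 116 and 90.1. Other hairpins of neuronal microRNAs lay farther from a region: Mir138-1 by 4268 bp, Mir138-2 by 6254 bp, Mir134 by 15475 bp and Mir128-1 by 20960 bp. Among microRNAs best known from other tissues, Mir206 of muscle lay 632 bp from a region of 65.4 and 25.3. Mir141 and Mir200c of epithelia lay 4977 and 5385 bp from one, Mir375 of endocrine cells 6936 bp, Mir302a of stem cells 7235 bp, Mir208a of heart 9375 bp and Mir96 of sensory epithelia 36068 bp. Of the glial and immune microRNAs looked at, Mir223 of myeloid cells, a class that includes microglia, lay farthest from a region, by 64049 bp. Mir219a-1 lay 8 bp from a region of 72.1 and 54.0. Mir338 lay 1217 bp, Mir146 2130 bp and Mir155 6550 bp from one. Hairpins of each kind thus lay near regions and far from them.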

How the data were processed

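The 2 WT libraries formed 1 group. Paired reads were processed with the ENCODE ATAC-seq pipeline on mm10, with multimapping 0 and peaks called at p 0.01, per the instructions deposited with the series, whose example is for another group. Trimming, duplicate and mitochondrial read removal, a Tn5 adjustment, at most 300000 peaks per list and a last filter are recorded in the list names. deepTools 3.5.0 is named in the submitters' processing notes. Which aligner and peak caller were used is not given in the sources used here. The deposited lists, 1 per library with 256323 and 261201 peaks, hold for each peak a score, a ratio to background (fold enrichment), p-values and q-values in −log10 form and the summit, all the authors' own values. The deposited score was not used. Read counts were not used, so depth is unknown and counting intervals are absent.

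Overlapping peaks were merged per library (Python 3.11.15, pandas 2.3.3, numpy 2.4.6). Regions overlapping by at least 1 bp between libraries were joined, and the span of both kept. They were ordered by the mean of their 2 ranks in −log10 p. Genes were the 21883 protein-coding genes of a RefSeq table (GRCm38.p6), and starts were 21262 listed starts of 17491 of these (79.9%). All 392 genes of the 26 lists matched by symbol. Merging, joining and start assignment were tested on simulated data with known answers. Members, lists, families, motifs and microRNAs were chosen with earlier results of these data known.

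Named were the genes of the 10 strongest regions anywhere, away from gene ends and inside genes, of the 10 widest, of the 10 with most regions and most per 100 kb, the 2 strongest members of each list with those without a region where 3 or fewer, and Tnfrsf12a and Tnfsf12. Some genes under this rule are not reported here. The labels do not say whether the replicates are separate mice, so agreement between them may be technical. The alternatives were other merging, overlap, p, q, start-window and placement rules, ranking by fold, and each library alone; 2 other start rules were added after seeing the data.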

Additional observations from a re-analysis of the deposited data

How the results depend on the processing

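Under the alternatives that kept both libraries, the counts of shared regions, of regions at starts, inside genes and far from genes, and of genes with a start region stayed within 1.5 times of the reported ones. The exception was the number of genes with 20 or more regions, which was 498 with peaks of −log10 p of 5 or more in place of 1030. With a single library the requirement of recurrence is gone by construction: shared regions came to 192168 to 196388, those with the centre inside a protein-coding gene, starts included (74499 when shared), to 114135 to 115273, those more than 50 kb away to 36168 to 40145, and genes with 20 or more regions to 1878 to 1902. Then 6 of the 10 genes with most regions were the same, without either replicate. Starts moved less, with 19140 to 19209 regions and 14565 to 14635 genes. Of the strongest 1000 regions 894 were at a start when ranked by fold. With p at the stricter limit the microglial list had 5 genes with a start region in place of 9, and the endothelial list 5 in place of 10. The same limit gave 1 germ line gene in place of 2, as did an overlap of 50%. With listed starts alone, which fewer genes have, the retinal and skin lists had 0 genes, muscle 1, hypothalamus 2, choroid plexus 3, endothelium 6, pan-neuronal 8 and synapse 13. With either gene end read for every gene beside its listed starts, the lists of retina and skin had 5 each, muscle 6, germ line 4 and hypothalamus 7. Within 2.5 kb of a start, retina, liver and germ line had 4 each and muscle 5. That window also gave a region to all 20 housekeeping, 26 synaptic, 16 pan-neuronal, 16 astrocyte and 16 oligodendrocyte genes. The same held for all 15 general chromatin and transcription factor genes. Members of these lists named above as without a start region thus had one within 2.5 kb. Without WT replicate 1 hypothalamus had 7 and germ line 4, and without WT replicate 2 retina had 1 and muscle 5. The main limits are the unknown depth, 2 libraries, bulk tissue and an incomplete start table. No paired analysis was possible because 1 group was described and nothing was compared.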

Other observations

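Further gene families were collected by symbol after the data were seen. Mitochondrial ribosomal protein genes had a shared region at the start in 77 of 78 cases, proteasome subunit genes in 38 of 39 and complex I subunit genes in 37 of 40, beside 64.6% of all genes. Start regions in the strongest decile were found for 80.8%, 89.7% and 85% of these families. Zinc finger genes of the Zfp series, many of which encode repressors, had a start region in 350 of 397 cases, 68.8% in the strongest decile. Glutamate receptor genes had one in 22 of 24 cases, 29.2% in the strongest decile, and voltage-gated sodium channel genes in 5 of 10. The median glutamate receptor gene had 17.5 assigned regions, against 1 for the families of the ribosome, proteasome and complex I.

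On the X chromosome 2542 shared regions were found, and 5 on the Y chromosome, where the deposited lists held 15 peaks in WT 1 and 25 in WT 2.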
